A study of Mus musculus with 13 samples.

Results

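The killer lectin-like receptor genes described here were 7 of the 12963 genes in the deposited table, measured in T cells taken from mouse melanomas. They were Klre1, Klrk1, Klrc1, Klrc2, Klrd1, Klrg1 and Klrb1c, found by gene symbol, and they had been chosen from measured values of these same libraries, so their levels are given as a description and no p-value is given for them. All 7 had at least 10 normalized reads in at least 2 libraries, the filter used for the tests of other genes. B16-F10 cells, a mouse melanoma line, were grown under the skin of adult Foxp3-EGFP-DTR mice, in which cells that express Foxp3 also make EGFP and a human receptor for diphtheria toxin, both under control of the Foxp3 gene. Diphtheria toxin (DTx) therefore kills Foxp3-expressing regulatory T (Treg) cells in every tissue of these animals, and phosphate-buffered saline (PBS) was the control. The 13 libraries, 1 per sorted sample, came from 5 groups. With PBS, GFP-positive Treg cells gave 3 libraries (Treg PBS), GFP-negative conventional CD4 T cells 2 (CD4 PBS) and CD8 T cells 2 (CD8 PBS). With DTx there were 3 libraries of conventional CD4 T cells (CD4 DTx) and 3 of CD8 T cells (CD8 DTx). All groups shared the Foxp3-EGFP-DTR genotype and the tumor line, and the PBS groups held replicates 2 and 3 except for Treg PBS.

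Killer lectin-like receptors are C-type lectin-like membrane proteins best known from natural killer (NK) cells and also carried by activated and tissue-resident T cells. Klrd1 encodes CD94, which pairs with the product of Klrc1 (NKG2A, inhibitory) or Klrc2 (NKG2C, activating) to bind the non-classical MHC molecule Qa-1, encoded by H2-T23. Klrk1 encodes NKG2D, an activating receptor for stress-induced ligands that signals through the adaptors DAP10 and DAP12. Klre1 encodes a partner of other lectin-like receptors, Klrg1 an inhibitory receptor for cadherins that is used as a marker of late effector cells and of activated Treg cells, and Klrb1c the NK1.1 antigen of NK and NKT cells.

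All 7 genes lie on chromosome 6. The 6 other than Klrg1 lie in the NK gene complex, where the RefSeq table lists Klre1, Klrd1, Klrk1, Klrc3, Klrc2 and Klrc1 one after another and Klrb1c at the other end of the interval, beyond Cd69. Klrg1 lies outside it. RefSeq promoter windows (GRCm38.p6, from 250 bases before to 50 bases after the start site) matched 5 members, and they are shown because the levels of these members were correlated across the libraries. They span chr6:129577963-129578262 on the plus strand for Klre1 and, on the minus strand, chr6:129623815-129624114 for Klrk1, chr6:129678924-129679223 for Klrc1, chr6:129660547-129660846 for Klrc2 and chr6:128788592-128788891 for Klrb1c. Capitals mark the core letters TGTGGT of Runx factors, or ACCACA where the match is on the other strand.
Klre1: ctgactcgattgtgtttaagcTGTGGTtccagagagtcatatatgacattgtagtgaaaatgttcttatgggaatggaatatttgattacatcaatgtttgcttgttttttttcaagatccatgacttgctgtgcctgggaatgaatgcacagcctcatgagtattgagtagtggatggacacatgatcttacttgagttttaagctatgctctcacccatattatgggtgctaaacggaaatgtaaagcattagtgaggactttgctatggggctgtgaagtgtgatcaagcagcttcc
Klrk1: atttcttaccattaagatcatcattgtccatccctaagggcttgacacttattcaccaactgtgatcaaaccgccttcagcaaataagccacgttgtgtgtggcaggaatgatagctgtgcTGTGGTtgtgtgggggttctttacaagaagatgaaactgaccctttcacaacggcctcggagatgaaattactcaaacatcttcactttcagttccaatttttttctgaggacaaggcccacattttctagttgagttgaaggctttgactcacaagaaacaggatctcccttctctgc
Klrc1: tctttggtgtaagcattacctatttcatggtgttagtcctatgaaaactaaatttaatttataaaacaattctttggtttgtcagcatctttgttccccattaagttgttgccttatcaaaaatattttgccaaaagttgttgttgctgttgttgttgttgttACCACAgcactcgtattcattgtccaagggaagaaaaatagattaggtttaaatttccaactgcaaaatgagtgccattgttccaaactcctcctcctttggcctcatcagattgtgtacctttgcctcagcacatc
Klrc2: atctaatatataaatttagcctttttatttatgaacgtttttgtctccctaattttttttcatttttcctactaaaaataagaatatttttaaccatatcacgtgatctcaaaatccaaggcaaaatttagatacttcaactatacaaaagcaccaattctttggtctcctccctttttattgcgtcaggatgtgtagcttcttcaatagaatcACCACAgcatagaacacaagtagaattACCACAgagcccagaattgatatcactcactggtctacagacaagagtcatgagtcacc
Klrb1c: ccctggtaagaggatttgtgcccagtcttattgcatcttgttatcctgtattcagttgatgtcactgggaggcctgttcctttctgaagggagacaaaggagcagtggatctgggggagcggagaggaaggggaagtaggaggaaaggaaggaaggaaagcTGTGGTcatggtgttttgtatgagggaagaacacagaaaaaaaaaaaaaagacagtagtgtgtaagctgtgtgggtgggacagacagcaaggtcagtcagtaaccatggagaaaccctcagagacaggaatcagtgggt
The windows shown are those of the first start site listed for each gene. The core was present in all 5 of them, at bases -229, -129, -87, -36 and -9, and -89 from the start site for Klre1, Klrk1, Klrc1, Klrc2 (both of its matches) and Klrb1c. Of 27025 RefSeq promoter windows of the same length, 16.9% held it on either strand. The 5 windows are not independent, since these genes are related copies, and the letters were searched after the sequences had been seen. The T-box core GTGTGA, or TCACAC, was found in 14.4% of all windows and in 1 of the 5, that of Klre1, at base 31 after the start site, apart from the Runx core. Klre1 and Klrc2 have a second listed start site. The second Klre1 window (chr6:129578036-129578335) held no Runx core and had the T-box core at base -42, and the second Klrc2 window held the Runx core at bases -76 and -49. A match of 6 letters is a description of the sequence and not a measured site. No binding was measured here.

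Values are normalized reads, which are whole reads divided by a factor for each library. The libraries held 15947556 to 34140486 recovered reads, so that 1 read was worth 0.661 to 1.37 normalized reads and a count of 0 allowed up to 1.98 to 4.10 normalized reads (3 reads, counting error only). The sort labels held: Foxp3 had 1178 to 1896 normalized reads in the Treg PBS libraries and 0 to 12.1 elsewhere, Cd4 was at 413 or less in the CD8 libraries, and Cd8a was at 23475 or more there. Cd8a was not at 0 in the CD4 DTx libraries, and NK-cell genes were high in some CD8 libraries. Both are given below beside the levels of the members.

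Klre1 had the largest ratio of CD8 DTx to CD4 DTx means of the 7 members. It was at 0 normalized reads in all 3 Treg PBS libraries and at 0 and 5.28 in CD4 PBS. In CD4 DTx it was at 92.6, 63.4 and 72.4, in CD8 PBS at 654 and 219.9, and in CD8 DTx at 1979.8, 1848 and 1246 (replicates in order throughout). The groups above Treg PBS and CD4 PBS followed one another without overlap, from CD4 DTx to CD8 PBS to CD8 DTx. The mean was 28.8-fold higher in CD4 DTx than in CD4 PBS and 3.87-fold higher in CD8 DTx than in CD8 PBS, or 4.93 (SE 0.80) and 2.13 (SE 0.80) as log2 fold changes on the scale of log2(normalized reads + 1). Without CD4 PBS replicate 2 the CD4 fold was 14.4, without CD4 PBS replicate 3 it was at least 18.6, and without CD8 PBS replicate 2 the CD8 fold was 7.69. Between the DTx groups the CD8 mean was 22.2-fold higher, and against Treg PBS it was at least 479-fold higher.

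**Figure D1:**
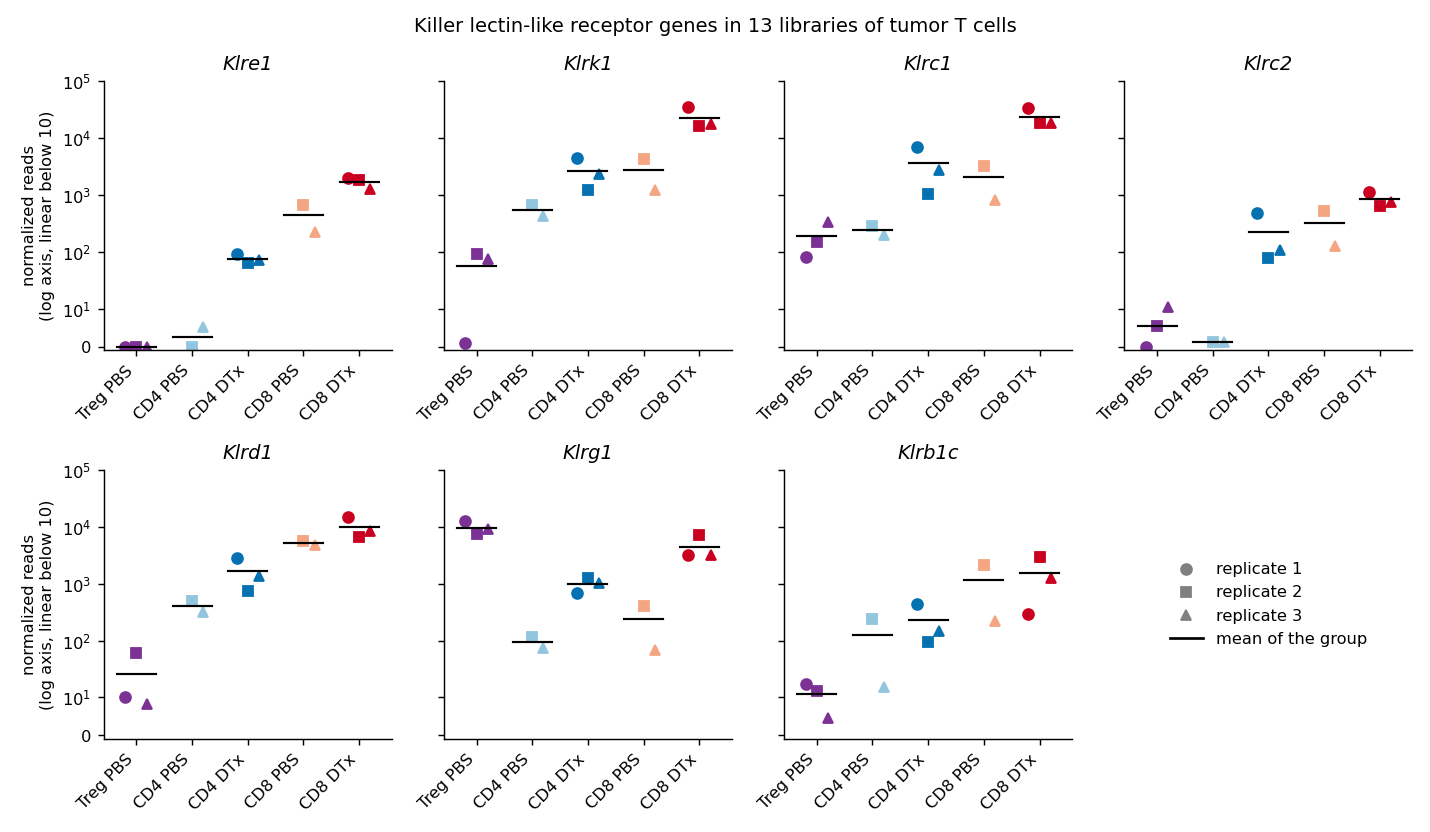
Normalized reads of the 7 genes (vertical, log axis, linear below 10) in the 5 groups (horizontal); each symbol is 1 library and each line the group mean. The 6 others are highest in CD8 DTx by mean, and Klrg1 is highest in Treg PBS, at 7400 to 12492.

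Klrk1, the gene of the activating receptor NKG2D, was lowest in Treg cells and highest in CD8 T cells after DTx. The Treg PBS libraries held 0.847, 93.2 and 75.3 normalized reads and the CD4 PBS libraries 653 and 428. In CD4 DTx it was at 4426, 1204 and 2343, in CD8 PBS at 4289 and 1205, and in CD8 DTx at 34639, 16124 and 17709. The CD4 DTx and CD8 PBS libraries overlapped, and every CD8 DTx library was above them. The log2 fold change by DTx was 2.13 (SE 1.31) in CD4 and 3.24 (SE 1.31) in CD8 T cells. The ratio of CD8 means, 8.31, was 18.9 without CD8 PBS replicate 2 and 5.32 without CD8 PBS replicate 3. The fit shares its spread over the 5 groups, and 1 Treg PBS library held a single Klrk1 read.

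Klrd1, the shared CD94 subunit, was ordered by group without overlap. The 3 Treg PBS libraries held 10.2, 59.6 and 8.24 normalized reads, the CD4 PBS libraries 500.2 and 322, and the CD4 DTx libraries 2868, 744 and 1374. In CD8 PBS it was already at 5575 and 4696, and in CD8 DTx it was at 14727, 6593 and 8244. The order from low to high was Treg PBS, CD4 PBS, CD4 DTx, CD8 PBS and CD8 DTx. The difference by DTx was 1.92-fold in CD8 T cells (log2 fold change 0.86, SE 0.73) and 4.04-fold in CD4 T cells (1.83, SE 0.73), or 2.57-fold without CD4 DTx replicate 1.

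Klrc1, which encodes the inhibitory partner NKG2A, differed more by DTx than Klrd1 did. It was at 81.3, 149 and 332 normalized reads in Treg PBS, overlapping with 283 and 194 in CD4 PBS. It was at 7003, 1035 and 2719 in CD4 DTx, at 3266 and 818 in CD8 PBS, and at 34275, 18332 and 18320.4 in CD8 DTx. The CD4 DTx libraries overlapped with CD8 PBS and lay below all CD8 DTx libraries. The mean was 15.1-fold higher with DTx in CD4 (log2 fold change 3.52, SE 0.78) and 11.6-fold higher in CD8 T cells (3.79, SE 0.78). The CD4 fold was 7.88 without CD4 DTx replicate 1, and the CD8 fold was 28.9 without CD8 PBS replicate 2 and 7.24 without CD8 PBS replicate 3.

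Klrc2, which encodes the activating partner NKG2C, was near 0 in both Treg PBS and CD4 PBS. Treg PBS libraries held 0, 5.42 and 10.6 normalized reads, and CD4 PBS libraries 1.37 and 1.32, within the limit that a count of 0 allows. It was at 487, 78.7 and 109 in CD4 DTx, at 519.99 and 127 in CD8 PBS, and at 1119, 650.1 and 747 in CD8 DTx. CD4 DTx and CD8 PBS overlapped, and the CD8 DTx libraries were above both. The difference by DTx was at least 54.9-fold in CD4 T cells and 2.59-fold in CD8 T cells. The CD4 bound was 22.9 without CD4 DTx replicate 1 and 114 without CD4 PBS replicate 2, and the CD8 fold was 6.62 without CD8 PBS replicate 2 and 1.61 without CD8 PBS replicate 3. Klrc1, Klrc2 and Klrc3 are similar in sequence and only uniquely mapped reads were counted, so their exact shares are uncertain.

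Klrg1 had another pattern. It was highest in Treg PBS, at 12492, 7400 and 9048 normalized reads, and low in CD4 PBS (118 and 74.0) and CD8 PBS (412 and 69.3), which overlapped. It was at 685, 1262 and 1022 in CD4 DTx and at 3134, 7099.7 and 3142 in CD8 DTx. The DTx groups did not overlap with the PBS group of the same cell type or with each other, and the highest CD8 DTx library came close to the lowest Treg PBS library. The log2 fold change by DTx was 3.35 (SE 0.61) in CD4 and 4.60 (SE 0.61) in CD8 T cells. Here the ratio of CD8 means, 18.5, was 64.3 without CD8 PBS replicate 2 and 10.8 without CD8 PBS replicate 3. Treg PBS was 101-fold above CD4 PBS (6.64, SE 0.61) and 9.75-fold above CD4 DTx.

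Klrb1c, the gene of NK1.1, did not separate by treatment. Treg PBS libraries held 16.9, 12.9996 and 4.71 normalized reads, CD4 PBS libraries 236 and 15.2, and CD4 DTx libraries 444, 95.1 and 149. It was at 2113 and 217 in CD8 PBS and at 292, 2964 and 1265 in CD8 DTx. PBS and DTx libraries overlapped in both cell types, and the differences by DTx were smaller than or close to their errors, 1.58 (SE 1.30) in CD4 and 0.60 (SE 1.30) in CD8 T cells on the log2 scale. The sign of the CD8 difference turned to -1.03 without CD8 PBS replicate 3, and to -0.16 without CD8 DTx replicate 2. In CD4 T cells it turned to -0.35 without CD4 PBS replicate 3. These are bulk samples, so for every gene more cells that carry it and more RNA per cell cannot be told apart.

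**Figure D2:**
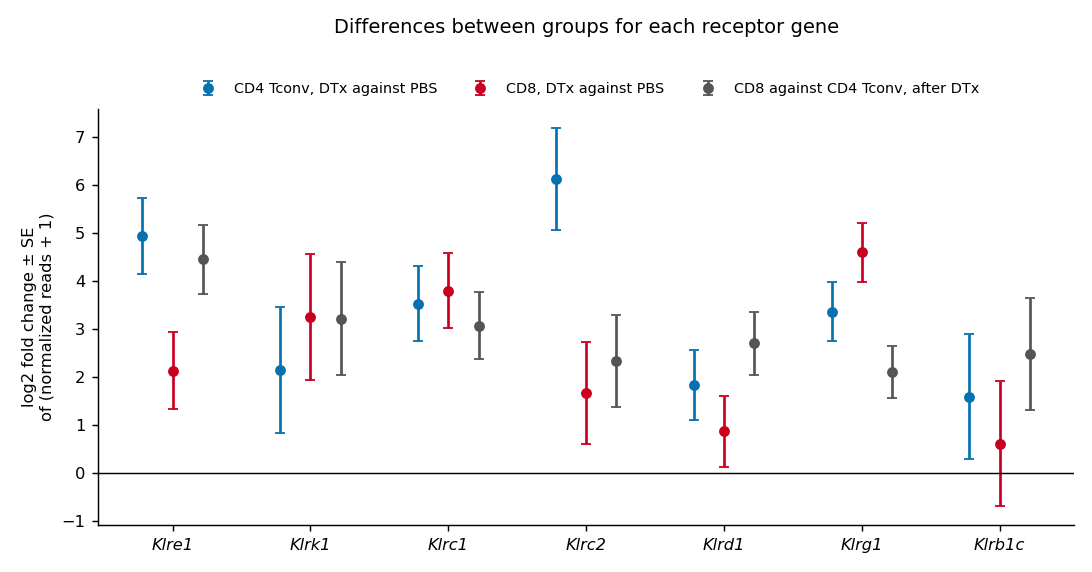
Log2 fold change of (normalized reads + 1) with its SE (vertical) for the 7 genes (horizontal) in 3 comparisons of 2 or 3 libraries a group. Klrc2 and Klre1 show the largest DTx differences in CD4 T cells, at 6.12 and 4.93, Klrg1 the largest in CD8 T cells, at 4.60, and the Klrb1c differences by DTx are 1.58 and 0.60 with an SE of 1.30.

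The DTx difference was also compared between cell types, as the CD4 difference minus the CD8 difference. On the log2 scale it was 4.45 (SE 1.51) for Klrc2 and 2.80 (SE 1.13) for Klre1, both of which were at or near 0 in CD4 PBS but not in CD8 PBS. The other 5 lay between -1.25 and 0.98 with errors of 0.87 to 1.86. For Klrc1 it was -0.26 (SE 1.10), and its sign depended on the settings tried. The value for Klrg1 was -1.25 (SE 0.87), and it was 0.03 without CD8 PBS replicate 3.

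A gene was called where the limma test gave an adjusted p under 0.05 (Benjamini-Hochberg over 12667 genes) and the fold was above 4. By DTx, 4 members met this rule as higher in CD4 T cells (Klrg1, Klrc1, Klre1 and Klrc2), where 5.06% of genes were called higher and 1.79% lower. In CD8 T cells 2 did (Klrg1 and Klrc1), where 3.87% were called higher and 1.59% lower. For CD8 PBS against CD4 PBS 2 did (Klre1 and Klrc2; 0.742% higher, 0.166% lower), and for CD8 DTx against CD4 DTx 1 did (Klre1; 0.576% higher, 0.426% lower). In Treg PBS against CD4 PBS 1 member met it as higher (Klrg1, against 7.85% of genes) and 2 as lower (Klrk1 and Klrd1, against 2.35%). Against Treg PBS, CD4 DTx had 5 higher and 1 lower, Klrg1 (1.56% and 2.45% of genes), and CD8 DTx had 6 higher (2.14%, with 2.79% lower). For the difference of the DTx differences no member did, with 6 genes called (0.0474%) and 513 at an unadjusted p under 0.05, and leaving out single libraries gave 0 (without either CD4 PBS library) to 14 genes (without CD4 DTx replicate 1). Because the members were chosen from these values, nothing is read from their counts. The comparisons share groups, and Treg PBS and CD4 PBS each enter several of them. Single libraries moved the totals: from 868 to 496 genes by DTx in CD4 without CD4 PBS replicate 3, from 692 to 153 in CD8 without CD8 PBS replicate 3, from 115 (94 higher and 21 lower) to 57 (25 higher and 32 lower) for CD8 PBS against CD4 PBS without CD8 PBS replicate 2, from 1292 to 840 for Treg PBS without CD4 PBS replicate 3, and from 127 to 51, 73, 59 and 62 between the DTx groups without CD4 DTx replicate 2, CD4 DTx replicate 3, CD8 DTx replicate 1 and CD8 DTx replicate 2.

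In CD4 and CD8 T cells the ratio of Klrc1 to Klrd1 was higher in DTx than in PBS libraries. Per kilobase of exon (GENCODE M21 lengths), the ratio of Klrc1 to Klrd1 was 0.275 and 0.292 in CD4 PBS and 0.285 and 0.0849 in CD8 PBS. It was 1.19, 0.677 and 0.964 in CD4 DTx and 1.13, 1.35 and 1.08 in CD8 DTx. All 6 DTx libraries were above all 4 PBS libraries of these cell types. In Treg PBS, where Klrd1 was at 59.6 normalized reads or less, the ratio was 3.90, 1.22 and 19.6. The ratio of Klrk1 to Klrd1 also lay higher with DTx, at 0.434, 0.455 and 0.480 in CD4 DTx and 0.662, 0.688 and 0.604 in CD8 DTx, against 0.367 and 0.374 in CD4 PBS and 0.216 and 0.0722 in CD8 PBS. Klrc1 exceeded Klrc2 per kilobase by 10.2 and 10.5 times in CD8 PBS and by 49.6, 45.7 and 39.7 times in CD8 DTx. In CD4 DTx the ratio was 23.3, 21.3 and 40.3, below the 335 and 237 of CD4 PBS, where Klrc2 had only 1 and 2 reads. Per kilobase the mean order in CD8 DTx was Klrc1 (11917), Klrd1 (10202), Klrk1 (6648), Klrg1 (3153), Klre1 (1307), Klrb1c (573) and Klrc2 (261), and neighbors in this order overlapped between libraries except Klrg1 and Klre1. These lengths are from another build than the reads, so the ratios between groups are firmer than the ratios between genes.

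**Figure D3:**
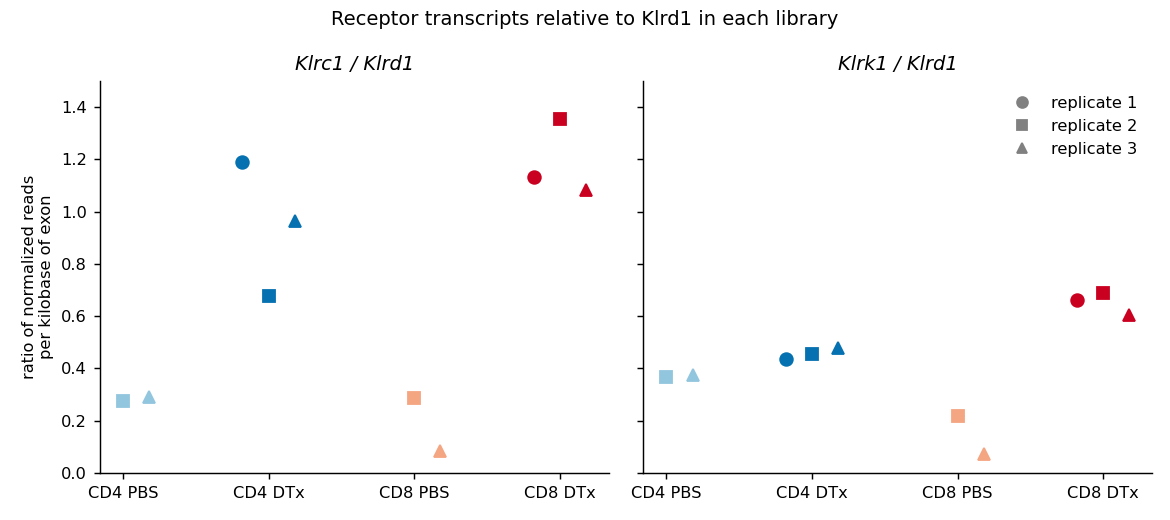
Ratio of Klrc1 (left) and Klrk1 (right) to Klrd1, in normalized reads per kilobase of exon (vertical), for each library of the CD4 and CD8 groups (horizontal). For Klrc1 the 4 PBS libraries are at 0.292 or below and the 6 DTx libraries at 0.677 or above.

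NK-cell genes differed between the CD8 libraries, and Klrb1c followed them. Ncr1, the NK-cell activating receptor NKp46, was at 956 and 25.3 normalized reads in CD8 PBS and at 17.6, 2147 and 599 in CD8 DTx. Tyrobp, the adaptor DAP12, was at 1017 and 64.0 in CD8 PBS and at 38.8, 2204 and 953 in CD8 DTx. Klrb1c was high in the same libraries and low in the same libraries. Klrg1 was also highest in CD8 DTx replicate 2, and in CD8 PBS all 7 members were higher in replicate 2, the library with more Ncr1, than in replicate 3. Among the CD8 libraries, Klrk1, Klrc1, Klrc2, Klrd1 and Klre1 were highest in CD8 DTx replicate 1, where Ncr1 was at 17.6. Of the NK-cell Ly49 receptor genes in that library, Klra8 and Klra1 were at 0 and Klra4 at 1.85. Klra3 was at 115, Klra7 at 108, Klra6 at 58.2, Klra13-ps at 37.9, Klra5 at 31.4 and Klra9 at 20.3. Klri2, of another NK-cell receptor chain, was at 336 in the same library. There Klrk1 was at 34639, Klrc1 at 34275, Klrd1 at 14727 and Klre1 at 1979.8.

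**Figure D4:**
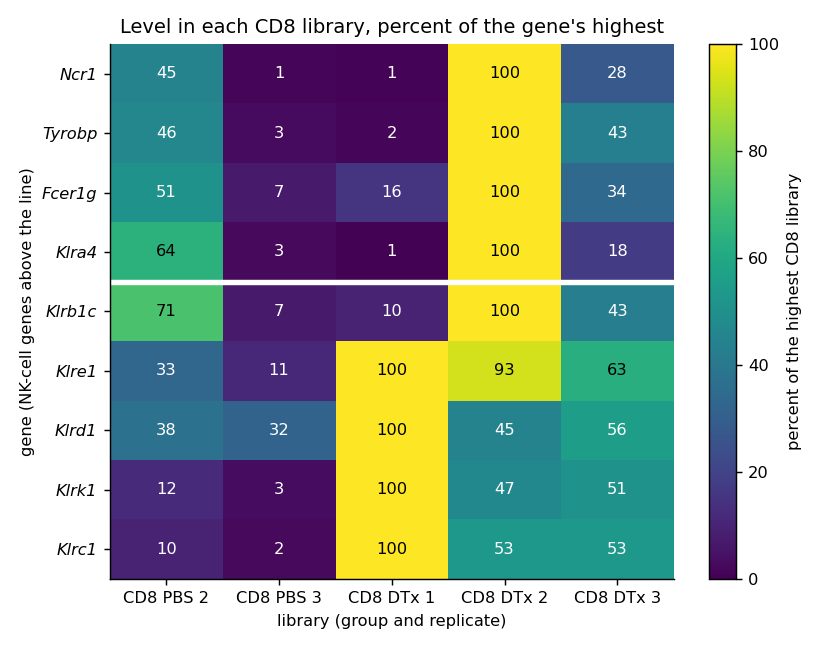
Level of 4 NK-cell genes (above the line) and 5 of the receptor genes in the 5 CD8 libraries, each as a percent of the gene's highest CD8 library (color and printed number). Klrb1c is low where Ncr1 and Tyrobp are low, while Klrk1, Klrc1, Klrd1 and Klre1 are at 100 percent in CD8 DTx replicate 1.

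All 11 genes of the NK-cell marker list were in the table, and their summed level was 1282 to 1349 normalized reads in Treg PBS, 5868 to 6362 in CD4 PBS, 4443 to 4816 in CD4 DTx, 6887 to 12774 in CD8 PBS and 38042 to 111069 in CD8 DTx. Klra8 and Cma1 were at or under 3 reads in every library of Treg PBS, CD4 PBS and CD4 DTx. In CD4 PBS Txk made up most of the sum, at 5589 on average against 1283 in CD4 DTx. Adamts14 (157 and 10.2) and Klra4 (5.47 and 0) were also lower in CD4 DTx by mean. Gzma (234 and 2710), Styk1 (20.5 and 268) and Eomes (72.9 and 189) were higher there. So were Klri2 (0 and 112), Ncr1 (34.3 and 76.9) and Klra9 (1.65 and 7.02). Gzma, which CD8 T cells also express, averaged 1589 in CD8 PBS and 56475 in CD8 DTx, where it makes up much of the sum. Txk (5199 and 2686) and Klra9 (177 and 167) were lower in CD8 DTx by mean. Higher by mean were Ncr1 (491 and 921), Eomes (1741 and 2364), Styk1 (80.0 and 652) and Adamts14 (181 and 456). Klri2 (198 and 357), Cma1 (1.21 and 74.9), Klra4 (98.2 and 116) and Klra8 (76.5 and 85.6) were also higher. Without CD8 PBS replicate 2 and CD8 DTx replicate 2, the CD8 libraries with the most Ncr1, the DTx difference in CD8 T cells was larger than with them for each member, from 1.23 for Klrd1 to 5.48 for Klrg1 on the log2 scale, with Klrk1 at 4.36, Klrc1 at 4.93, Klrc2 at 2.84, Klre1 at 2.83 and Klrb1c at 1.48. A lone CD8 PBS library then stood for its group. It held less of every member than the CD8 PBS library left out, so larger differences largely follow from that choice. Of the 6 gamma-delta T cell markers, 5 were in the table, and their sum was 38.9 to 81.2 in Treg PBS, 36.3 to 94.3 in CD4 PBS, 444 to 525 in CD4 DTx, 239.9 to 2059 in CD8 PBS and 2448 to 5988 in CD8 DTx. Tcrg-C2 made up most of it in CD8 DTx (4024 on average), but in CD8 PBS it averaged 442, beside 318 for Tcrg-C1, 230.4 for Blk, 95.7 for Trdv4 and 63.8 for Sox13. Only Tcrg-C2 was higher by mean in CD8 DTx. There Tcrg-C1 averaged 190, Blk 14.4, Trdv4 43.2 and Sox13 2.57. Trdv4, a gamma-delta V gene, was at 82.8 or less in CD8 DTx. The study's methods describe a TCRβ-positive gate for the CD4 populations, which would remove NK and gamma-delta T cells, and do not spell out the gate of the CD8 libraries. The part of these transcripts in the DTx differences was not tested. Zbtb16, the factor PLZF of NKT cells, was at 0 in both CD4 PBS libraries and at 18.7, 6.13 and 0 in CD4 DTx. It was at 0 to 69.3 in CD8 PBS and at 0 to 6.47 in CD8 DTx. Of the other NKT and innate-like T cell markers, Cd1d1 averaged 1733 in CD4 PBS and 826 in CD4 DTx. Slamf6 averaged 5018 and 7320 in the same groups.

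In the CD4 DTx libraries the members are given beside the CD8 transcripts, whose part in the DTx differences was not tested. Cd8a was at 103, 711 and 1302 normalized reads there, against 31.4 and 26.4 in CD4 PBS (log2 fold change 3.94, SE 0.84, limma adjusted p = 0.00874), and it was at 0.256, 1.77 and 3.24% of the CD8 DTx mean. Replicate 1, with the least Cd8a, held the most Klrk1, Klrc1, Klrc2, Klrd1, Klre1 and Klrb1c. As shares of the CD8 DTx mean, Klrk1 was at 19.4, 5.28 and 10.3%, Klrc1 at 29.6, 4.38 and 11.5%, Klrc2 at 58.1, 9.39 and 13.03% and Klrd1 at 29.1, 7.55 and 13.9%. Klre1 was at 5.47, 3.75 and 4.28% and Klrb1c at 29.5, 6.31 and 9.87%. Klrg1 was the exception, with its lowest share in replicate 1 (15.4, 28.3 and 22.9%). For every member each share was above those of Cd8a and Cd8b1 in the same library. Cd8b1, the other CD8 gene, was at 0.437, 2.68 and 3.86%, close to Klre1 in replicates 2 and 3. Unlike Cd8a, it was not called by DTx in CD4 T cells (log2 fold change 0.86, SE 0.68, limma adjusted p = 0.455). Its level was 529 to 589 normalized reads in CD4 PBS (1.19 and 1.33% of the CD8 PBS mean) and 267 to 2360 in CD4 DTx. With replicate 1 as the only CD4 DTx library the log2 DTx difference in CD4 T cells was 5.22 for Klre1 and 3.06 for Klrk1. It was 4.90 for Klrc1, 7.70 for Klrc2, 2.83 for Klrd1, 2.86 for Klrg1 and 2.84 for Klrb1c. Replicate 1 held the most of every member but Klrg1, so larger differences for those members follow from keeping it.

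**Figure D5:**
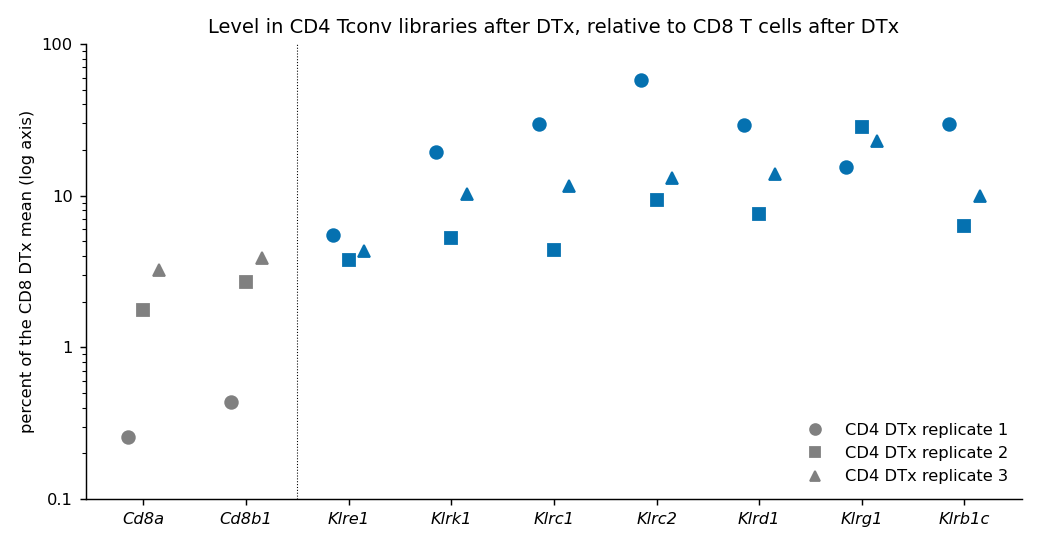
Level in each CD4 DTx library as a percent of the CD8 DTx mean (vertical, log axis) for the CD8 genes Cd8a and Cd8b1 (gray) and the 7 receptor genes (blue). Replicate 1 has the lowest Cd8a share, 0.256%, and the highest share for 6 of the 7 receptor genes, such as 58.1% for Klrc2.

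The table held 14 further Klr genes, which the choice of members left over and which are also described without a test. The Ly49 genes (Klra) were at or near 0 in Treg PBS and in the CD4 groups. Klra3, Klra5 and Klra6 were at or under 3 reads in all 8 of those libraries, and in the CD8 libraries Klra6 was at 279 and 127 normalized reads with PBS and at 58.2, 216 and 43.1 with DTx. Klra7 was at 1176 and 327 in CD8 PBS and at 108, 1113 and 432 in CD8 DTx, so PBS and DTx overlapped for both. Klrc3, the neighbor of Klrc2, stayed at 44.3 normalized reads or less in all libraries. Klrb1f was at 1163, 271 and 324 in CD4 DTx against 128 and 64.1 in CD4 PBS, and Klri2, an NK-cell receptor chain that pairs with the Klre1 product, was at 254, 22.5 and 57.9 against 0 and 0.

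Of 17 neighbors inside the interval, 9 were in the table and 8 were tested. By DTx 1 was called, in CD4 T cells: Gabarapl1, an autophagy gene next to Klre1, with 88.8 and 102 normalized reads in the CD4 PBS libraries and 343, 403 and 545 in the CD4 DTx libraries (limma adjusted p = 0.00188). In CD8 T cells its log2 fold change was 1.88 (SE 0.36, limma adjusted p = 0.00596), under the 4-fold limit, and Treg PBS libraries held 383 to 609.7 normalized reads. BC035044 was higher in CD8 DTx than in CD4 DTx (limma adjusted p = 0.0143), at 192, 340.0 and 232 against 0, 1.02 and 1.32. Cd69, an early activation marker that lies between Klrb1c and Klre1, had 6002 and 29030 in the CD4 PBS libraries and 8922, 6639 and 4845 with DTx and was not called by DTx. The median log2 fold change by DTx over the 8 neighbors was -0.62 in CD4 and 0.43 in CD8 T cells, against -0.04 and -0.03 over all genes.

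None of the 20 measured adaptor and signalling genes was called by DTx in either cell type, and their median log2 fold change was 0.22 in CD4 and 0.16 in CD8 T cells. Hcst, the adaptor DAP10 of NKG2D, was at 2089 ± 530 normalized reads (SD, n = 2) in CD4 PBS and at 4166 ± 829 (SD, n = 3) in CD4 DTx, with a log2 fold change of 1.0006 (SE 0.35) that missed the threshold (limma adjusted p = 0.0852). In CD8 T cells Hcst was at 2861 ± 292 (SD, n = 2) and 4438 ± 1153 (SD, n = 3) (limma adjusted p = 0.294). Fcer1g, an adaptor chain of NK and myeloid cells, was called higher in CD8 DTx than in CD4 DTx (log2 fold change 3.45, SE 0.78, limma adjusted p = 0.0491) with 366, 2358 and 810.3 normalized reads against 65.5, 82.8 and 96.1. It was lost in 11 of 15 alternatives, among them without each of these 6 libraries (limma adjusted p up to 0.1995), and it was highest in the library with the most Ncr1.

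Of 21 ligand genes 10 were measured, and 1 was called by DTx. Cdh1, which encodes E-cadherin, a ligand of KLRG1, was at 86.1 and 11.9 normalized reads in CD4 PBS and rose to 578, 539 and 1576 in CD4 DTx (log2 fold change 4.56, SE 0.80, limma adjusted p = 0.00281). It was at 14.4, 18.4 and 29.4 in Treg PBS, where Klrg1 was highest. In CD8 T cells it was at 627 and 225 with PBS and at 635, 1072 and 1758 with DTx and was not called. H2-T23, the gene of the CD94 ligand Qa-1, was at 14800 ± 926 (SD, n = 2) in CD4 PBS and 23402 ± 2094 (SD, n = 3) in CD4 DTx, and at 16382 ± 879 (SD, n = 2) and 21374 ± 4264 (SD, n = 3) in the CD8 groups, also not called.

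Of 18 measured NK-type receptors outside the Klr family, 8 rose with DTx in CD4 T cells (Havcr2, Itga1, Itga2, Slamf7, Lilrb4a, Pilrb1, Tigit and Cd7), 7 in CD8 T cells (the same without Cd7) and none lower, with median log2 fold changes of 1.65 and 1.37. Slamf7, an activating receptor of NK and cytotoxic T cells, had log2 fold changes of 3.77 (SE 0.42, limma adjusted p = 0.000182) and 3.63 (SE 0.42, limma adjusted p = 0.000496). Itga1, the collagen-binding CD49a of tissue-resident cells, had 5.40 (SE 0.72) and 4.66 (SE 0.72). Havcr2, the checkpoint receptor TIM-3, had 5.32 (SE 0.46) and 4.17 (SE 0.46). In CD8 T cells Itga2 and Pilrb1 were lost without CD8 PBS replicate 3, CD8 DTx replicate 1 or CD8 DTx replicate 2 (adjusted p up to 0.358 and 0.305), and Tigit without CD8 PBS replicate 3 (up to 0.0942). In CD4 T cells Itga2 and Pilrb1 were lost without CD4 PBS replicate 3 (up to 0.0714 and 0.0836), Pilrb1 also without CD4 PBS replicate 2. Between the DTx groups Cd160, Crtam and Cd244 were higher in CD8 T cells, and Cd160, a receptor for HVEM, was at 5331 ± 1382 against 235 ± 79.8 normalized reads (SD, n = 3 each, limma adjusted p = 0.000533). Crtam lost the call without any single one of the 6 libraries (limma adjusted p up to 0.190), and Cd244 without CD4 DTx replicate 2 or any single CD8 DTx library (up to 0.275).

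Of 20 transcription factors of NK and effector T cells, 4 were called higher and 2 lower by DTx in CD4 T cells, and 5 higher and 3 lower in CD8 T cells. Tbx21, which encodes T-bet, rose in both, with log2 fold changes of 3.24 (SE 0.43, limma adjusted p = 0.0005) and 2.57 (SE 0.43, limma adjusted p = 0.00329, lost without CD8 PBS replicate 3). Id2, an inhibitor of E proteins, rose by 2.84 (SE 0.36) and 2.70 (SE 0.36), and Bach2, a repressor of effector genes, fell, with -3.94 (SE 0.65) and -3.15 (SE 0.65). Tcf7, the factor TCF-1 of naive and stem-like T cells, fell, with -2.71 (SE 0.70) and -2.79 (SE 0.70), and its call was lost without any single CD4 library and without any single CD8 library but CD8 DTx replicate 3 (limma adjusted p up to 0.173 and 0.213). Zfp683 and Nfil3 rose in CD4 T cells, and Zeb2, Prdm1 and Tox2 rose and Id3 fell in CD8 T cells, where Zeb2, Prdm1, Tox2, Bach2 and Id3 lost the call without CD8 PBS replicate 3, Zeb2 also without CD8 DTx replicate 2, and Id3 also without CD8 PBS replicate 2, CD8 DTx replicate 2 or CD8 DTx replicate 3 (limma adjusted p up to 0.260). Nfil3 lost it without CD4 PBS replicate 2, and Zfp683 without any single CD4 library but CD4 DTx replicate 1 (up to 0.342). Eomes was not called by DTx, and was at 1741 ± 89.1 (SD, n = 2) in CD8 PBS and 2364 ± 1158 (SD, n = 3) in CD8 DTx against 36.9 ± 52.1 (SD, n = 3) in Treg PBS.

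Of 15 cytotoxic granule genes, 7 were called higher by DTx in CD4 T cells (Gzmb, Nkg7, Gzma, Gzmk, Fasl, Ctsw and Srgn) and 4 in CD8 T cells (Gzma, Gzmb, Gzmk and Fasl), with none lower. Gzmb, which encodes granzyme B, had log2 fold changes of 5.30 (SE 0.60, limma adjusted p = 0.000188) and 5.18 (SE 0.60, limma adjusted p = 0.000534). Treg PBS libraries also held 19141 ± 2576 normalized reads of Gzmb (SD, n = 3), and Klrd1, Klrk1 and Klre1 had their lowest means there. In CD4 T cells Gzma, Gzmk, Ctsw and Srgn lost the call without CD4 PBS replicate 3, and Fasl, Ctsw and Srgn without CD4 DTx replicate 1. Among the differentiation markers, 6 rose (Il12rb2, Il18rap, Il18r1, S1pr5, Cxcr3 and Il2rb) by DTx in CD4 T cells, and 5 rose (Il12rb2, Il18rap, S1pr5, Cxcr3 and Cx3cr1) in CD8 T cells. Cx3cr1, the fractalkine receptor of KLRG1-high effector cells, was at 385 ± 311 (SD, n = 2) in CD8 PBS and 5523 ± 3831 (SD, n = 3) in CD8 DTx (limma adjusted p = 0.00239). Ccr7, a homing receptor of naive T cells, fell in both cell types. These lists and the members were read from the same libraries, so their moving together is no independent support for either.

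The genes most like each member were taken by Pearson r of log2(normalized reads + 1) over the 13 libraries, whose 5 groups set most of each r. They were Epsti1 for Klre1 (r = 0.970), Amica1 and Tcrg-C2 for Klrk1 (0.972 and 0.968), Trgv2 and Slamf7 for Klrc1 (0.957 and 0.947), Haao for Klrc2 (0.955) and Atp8b4 for Klrd1 (0.988). For Klrb1c the third was Ncr1 (0.890) and for Klrg1 the first was Fignl1 (0.966). Among the members, Klrg1 had r of -0.35 to 0.12 with the other 6, which had r of 0.79 to 0.94 with one another.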

How the data were processed

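RNA sequencing libraries of sorted tumor T cells were prepared with a low-input SMART protocol (SmartSeq2 per the labels, a SMARTer Ultra Low-input kit per the study's methods). The authors trimmed reads with Cutadapt, aligned them with hisat2 to NCBIM37 (mm9), counted uniquely mapped reads per gene and scaled them with an intergenic read normalization. The counter, its version and its strand setting are not given in the sources used here, so reads of overlapping, antisense or near-identical genes cannot be told apart. The deposited values are a signal of normalized reads. They are named FPM by the authors but do not sum to a fixed total per library, and 100% were whole multiples of 1 step per library within 0.01, which gave back the reads (whole reads recovered). The deposited table has 1 column per library, and no column was left unmapped.

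The fit used limma 3.58.1 (R 4.3.3) with a trend on log2(normalized reads + 1) over all 13 libraries with a mean per group, for the 12667 genes that reached 10 normalized reads in 2 or more libraries. A gene was called at a Benjamini-Hochberg adjusted p under 0.05 and a change of more than 4-fold in either direction (2 on the log2 scale), as in the study. A fold change on this scale understates the change of low genes. Alternatives were no filter, a pseudocount of 10, TMM scaling, a replicate block, edgeR 4.0.16 and DESeq2 1.42.0 on the recovered reads, only the groups compared, and leaving out libraries. The script was tested on simulated data. P-values measure the spread between these samples, which the study describes as biological replicates. The pairing check gave correlations of 0.36, 0.21 and 0.59 between same-numbered CD8 DTx and CD4 DTx libraries, so these were taken as pairs. The main fit had no block, so its p-values for CD8 DTx against CD4 DTx do not use this pairing. Only the replicate block among the alternatives does. The pairing comes from the data: the study states that replicates were isolated on different days, but not which number marks which day.

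The members and lists were chosen with earlier results of these data known. Named genes were all members, the other Klr genes, genes of the lists called in the comparison at hand and, for each member, the 3 most similar genes, not all of which are printed. Hcst, H2-T23, Eomes, Cd69, Zbtb16, Cd1d1, Slamf6 and the NK-cell and gamma-delta genes were named outside that rule, after their values were seen, as were the motifs. Folds without a log2 scale are ratios of group means. Where a group was at or under 3 reads in each library, the fold is a lower bound against the highest 3-read floor of a library in that group. Promoter windows and gene order came from RefSeq tables of GRCm38.p6, exon lengths from GENCODE M21, both of another build than the reads. The table's values have no coordinates. A result for 1 listed differentiation marker is not reported here.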

Additional observations from a re-analysis of the deposited data

Results flagged for a closer look

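Perforin (Prf1) was the only gene of the lists whose DTx difference differed between the cell types by the test of the difference itself. The CD4 difference minus the CD8 difference was -3.14 on the log2 scale (SE 0.46, limma adjusted p = 0.0447). Prf1 was at 1415 ± 16.4 normalized reads in CD4 PBS (SD, n = 2) and at 575 ± 231 in CD4 DTx (SD, n = 3), and at 4576 ± 1538 in CD8 PBS (SD, n = 2) and 15251 ± 2605 in CD8 DTx (SD, n = 3). The call was lost in 11 of 19 alternatives (adjusted p from 2.38e-06 to 0.184), among them without either CD4 PBS library, without CD4 DTx replicate 2, without CD8 PBS replicate 3 and without any one CD8 DTx library.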

How the results depend on the processing

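Of the counts of called genes under all alternatives, 82 stayed within 1.5 times the reported count, 7 were larger and 23 smaller. Of the called genes of the lists, 1276 values kept the call and 258 lost it, and none changed direction. Values of the members stayed within the spread between replicates in 733 cases and moved further in 51. Fitting only the groups compared gave 201 instead of 692 genes for CD8 DTx against CD8 PBS, 34 instead of 115 for CD8 PBS against CD4 PBS and 59 instead of 127 for CD8 DTx against CD4 DTx. Count models on the recovered reads gave 76 (edgeR) and 233 (DESeq2) for the last, 230 (DESeq2) for CD8 PBS against CD4 PBS, 323 instead of 508 (edgeR) for CD4 DTx against Treg PBS, and 70 instead of 6 (DESeq2) for the difference between the DTx differences, which had 10 without the filter. The cause was not tested. Leaving out libraries gave 496 to 1118 genes for CD4 DTx against CD4 PBS (868 with all), 153 to 994 for CD8 DTx against CD8 PBS, 37 to 112 for CD8 PBS against CD4 PBS, 51 to 335 for CD8 DTx against CD4 DTx, 840 to 1343 for Treg PBS against CD4 PBS (1292 with all), 345 to 730 for CD4 DTx against Treg PBS, 451 to 546 for CD8 DTx against Treg PBS and 0 to 97 for the difference between the DTx differences. Among these, 2 alternatives were chosen after seeing the data. Without CD8 PBS replicate 2 and CD8 DTx replicate 2, the most Ncr1-rich CD8 libraries, the counts were 469, 37, 78 and 2 for CD8 DTx against CD8 PBS, CD8 PBS against CD4 PBS, CD8 DTx against CD4 DTx and the difference of differences. Without CD4 DTx replicates 2 and 3, the most Cd8a-rich CD4 libraries, they were 1118, 335 and 97 for CD4 DTx against CD4 PBS, CD8 DTx against CD4 DTx and the difference of differences. Where an arm had 1 library left, it was taken to vary like the others.

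With a replicate block the counts were 878, 756, 133, 179, 1307, 648, 692 and 9 in the order of the comparisons above. None of these counts moved by over 1.5 times. Between CD8 DTx and CD4 DTx, the paired groups, the block ended no call of a list gene. By DTx in CD4 T cells it ended those of Ctsw and Srgn. For the other comparisons the check did not show that the numbers pair the libraries, and no source used here ties a number to a day. Low counts limit Klre1 in Treg PBS and CD4 PBS (0 to 8 reads) and Klrc2 there (0 to 9 reads).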
